A study of Mus musculus with 2 samples.

Results

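The D-type cyclins Ccnd1, Ccnd2 and Ccnd3, their partner kinases Cdk4 and Cdk6, the inhibitors Cdkn1a and Cdkn1b and the pocket proteins Rb1 and Rbl1 form the core of the decision to leave the G1 phase. These 9 genes were taken by symbol from the 32285 genes of the deposited feature list, and each matched 1 entry. Their unique molecular identifiers (UMIs, each tagging 1 captured transcript molecule) were summed in retinal progenitors, retinal neurons, retinal pigment epithelium (RPE) and the mesenchyme around the eye, in both genotypes. The list was drawn up by function, with no rule on measured values, although earlier results of these data were known when it was made.

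The data came from single-cell RNA-seq (10x Genomics 3′ chemistry) of mouse optic cups at E17.5, late in gestation. One library was made from Myrf humWT/humWT eyes and 1 from Myrf humdG/humdG eyes. Myrf encodes a membrane-bound transcription factor that releases its own nuclear fragment by self-cleavage. In both strains the last mouse exon was exchanged for the human one, so the controls carry a humanized allele too, and the humdG exon also holds a C-terminal frameshift variant. Homozygous humdG embryos were not seen after birth, so the homozygotes can be read only before birth. Eyes of several embryos were pooled for each library, as 3 eye cups by the labels and as 6 eyes of 3 mice by the methods. The collection protocol in the labels names Myrf fl/fl and Rx>cre Myrf fl/fl mice, and says that the cornea was taken off. The genotype labels were followed here.

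With 1 library per genotype there was no replicate, so no test was made. Levels are given in CPM, the UMIs of a gene per 1000000 UMIs of all genes in a class. The intervals, all at 95%, allow for counting error and nothing else. They are exact Poisson for a level, exact conditional binomial for a ratio and Clopper-Pearson for a share. A difference between the libraries can come from the genotype, the pool of embryos or the library, and these cannot be told apart. The humWT library held 129135207 UMIs in 17421 barcodes and the humdG library 114319529 UMIs in 19565 barcodes. After filtering, 16167 and 18173 cells remained, with a median of 3785 UMIs in humWT and 2625 in humdG. The libraries shared 102 barcode sequences, of which 86 were among the cells kept.

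D-type cyclins accumulate when growth signals reach a cell in G1 and bind Cdk4 or Cdk6. The active kinases phosphorylate Rb1 and its relatives, which otherwise hold the E2F transcription factors silent on the genes for DNA replication. Cdkn1a, a target of p53, and Cdkn1b, a brake in cells that leave the cycle, bind cyclin-kinase complexes and set how much kinase activity is needed. In the developing mouse retina Ccnd1 is the D-type cyclin known for driving progenitor proliferation.

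In the genome assembly GRCm38, which matches the mm10 build of the processing notes, Ccnd1 lies at chr7:144929931-144939925 on the minus strand, Ccnd2 at chr6:127125162-127152193 on the minus strand and Ccnd3 at chr17:47505051-47599691 on the plus strand. The kinase genes are Cdk4 at chr10:127063534-127067920 and Cdk6 at chr5:3341485-3531008, both on the plus strand. The inhibitor genes are Cdkn1a at chr17:29090976-29100727 and Cdkn1b at chr6:134920401-134925513, both on the plus strand. The pocket protein genes are Rb1 at chr14:73183673-73325822 and Rbl1 at chr2:157145893-157204534, both on the minus strand. These spans take in whole genes with exons, introns and UTRs, and the 3′ chemistry reads only the end of each transcript.

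Of the 9 genes, 6 had a promoter in the RefSeq table for GRCm38.p6, with 8 windows of 250 bases before to 50 bases after a start site. The windows were searched on both strands for the E2F-type motifs TTTCCCGC, TTTCGCGC, TTTGCCGC and TTTGGCGC, and a window with any of them was counted once. Rbl1 was the 1 gene with a match, and it is shown because Rbl1 followed the replication genes across cell classes in the values further on. The stretch reads 5′ to 3′ on the gene's own minus strand, chr2:157204534-157204563, with the motif in capitals, and the motif begins 18 bases before the start site.

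Rbl1: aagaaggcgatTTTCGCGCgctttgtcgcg

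Such a motif was present in 744 of all 32851 windows (2.26%) and in 704 of 27025 genes (2.6%). The match describes letters in a window, and binding was not measured.

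Cells were clustered without the 9 genes and without 23 other G1 and S phase genes among the variable genes, so that these did not define a class. The p53-induced genes and the genes of cycling cells described below were not left out. Btg2, a p53-induced gene, was among the leading genes of the neurogenic-like cluster. Clusters were then named from marker lists. Of 23 clusters, 18 were named and 5 stayed unnamed, the largest of these with 3462 humWT and 7838 humdG cells of low depth. The class called retinal progenitor-like (Fgf15, Hes1, Sox2) held 1791 humWT and 3022 humdG cells. The neurogenic-like class (Atoh7, Neurog2, Dll1) held 421 and 769 cells, the photoreceptor precursor-like class (Crx, Otx2, Prdm1) 581 and 766, and the amacrine and horizontal-like class (Tfap2a, Ptf1a, Prox1) 530 and 912. No class of retinal ganglion cells could be named, so neurons here means the photoreceptor precursor-like and amacrine and horizontal-like classes. The neurogenic-like class was near progenitors in 14 genes of cycling cells and is not counted as neurons. These genes summed to 2567 CPM in humWT and 2712 in humdG there, and to 2890 and 2738 in progenitors. RPE-like cells (Dct, Pmel, Tyrp1, Mitf, Rlbp1) numbered 577 and 409. In the larger of their 2 clusters the melanocyte list was raised to the same share as the RPE list, and Ttr and Pmel of the RPE list stood among its 10 leading genes. The mesenchyme-like cells (Col1a1, Pdgfra, Twist1) formed a cluster led by Pi16 with 1190 humWT and 510 humdG cells and a cluster with Mgp among its leading genes, with 942 and 580 cells. The latter also had the pericyte gene Rgs5 among its 10 leading genes, so the mesenchyme was compared by cluster. A cluster was set as comparable when no other list had more markers than its own among those 10. The Mgp cluster, with 0 mesenchyme markers and 1 pericyte marker there, missed this rule. It was still kept among the 7 classes compared.

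Free RNA in the cell suspension gives every droplet some UMIs of genes that its cell does not express. Red blood cell-like cells, 501 in humWT and 252 in humdG, have little RNA of their own beside globin and served as the measure of it. Their globin genes Hba-a1 and Hbb-bs took 353819 CPM in humWT and 426131 in humdG. The list of 7 red blood cell markers, which also holds the globin genes Hba-a2 and Hbb-bt, took 471076 and 567954. The other genes of these cells are scaled down accordingly, more so in humdG. Of the 63 levels of the 9 genes in the 7 classes, 6 were at or below the red blood cell-like level in both libraries, 4 in humWT only and 2 in humdG only. Globin left out means, here and below, that Hba-a1 and Hbb-bs alone were left out of the red blood cell-like totals. The mark is then higher, and 13 levels were at or below it in both libraries, 6 in humWT only and 11 in humdG only. Hba-a2 and Hbb-bt stayed in these totals, so a mark without any globin would be higher still. Levels at or below the first mark are called background-level and named with each gene, and the part of free RNA in a ratio between the libraries was not tested. Both marks are in CPM, and the classes differ in depth. The median was 15118 UMIs in humWT and 16309 in humdG in the Pi16 cluster, and 4076 and 4144.5 in red blood cell-like cells. The same number of free UMIs gives a lower CPM in a deeper cell. A background-level value in a deeper class can thus still hold transcripts of its own cells. The median RPE-like cell was shallower than the median red blood cell-like cell, with 3803 UMIs in humWT and 2552 in humdG. In a shallower cell the same number of free UMIs gives a higher CPM. The part of this in the RPE-like ratios was not tested.

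**Figure D1:**
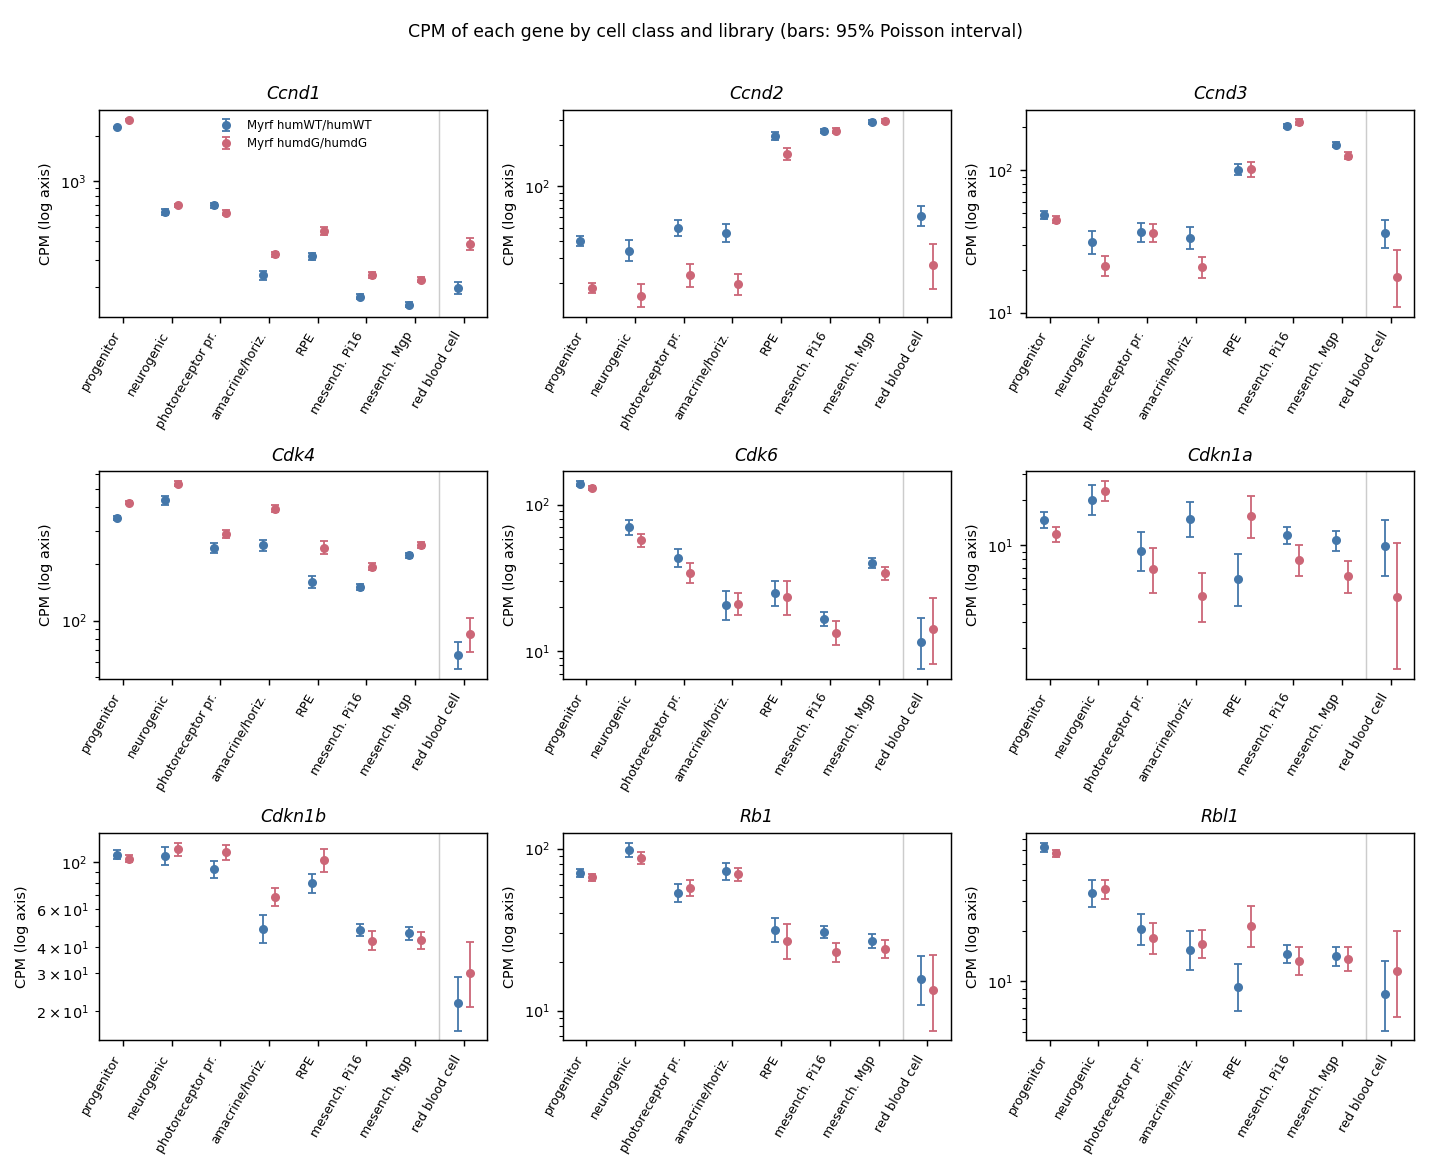
Level in CPM (log axis, its range set for each gene) of the 9 genes in the 7 classes compared and in red blood cell-like cells, set apart by a line. Blue points are the humWT library, red points the humdG library, bars are 95% Poisson intervals. Ccnd1 was highest in progenitors at 2278 and 2559.5 CPM, whereas Ccnd2 and Ccnd3 were highest in mesenchyme.

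Ccnd1 was the cyclin of the progenitors. It stood at 2278 CPM (2254 to 2302) in humWT progenitors and at 2559.5 (2540.3 to 2579) in humdG progenitors. No other named class came near that level in either library. An unnamed cluster led by histone genes, with 802 humWT and 828 humdG cells, had 1467 and 1724 CPM. A Ccnd1 UMI was found in 95.5% of humWT and 98.1% of humdG progenitors, compared with 49.9% and 81.3% among red blood cell-like cells. The median progenitor held 8315 UMIs of all genes in humWT and 8599 in humdG, the median red blood cell-like cell 4076 and 4144.5. With every cell thinned to 1000 UMIs, the shares were 74.8% and 82.9% in progenitors and 18.1% and 34.0% in red blood cell-like cells.

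Ccnd1 was at 626 and 693 CPM in neurogenic-like cells and at 693 and 619 in photoreceptor precursor-like cells, each pair as humWT and humdG. The order of these 2 classes was turned around between the libraries. The log2 ratio in photoreceptor precursor-like cells was -0.16 by these sums, 0.67 with equal weight for each cell and 0.08 when the libraries were clustered without integration. In humWT photoreceptor precursor-like cells 10 of 581 cells held 43.7% of the Ccnd1 UMIs, with up to 340 in 1 cell, against 18.5% in humdG. Amacrine and horizontal-like cells were lower, at 238 and 328 CPM, and the humdG value was below the red blood cell-like level of the same library.

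In RPE-like cells Ccnd1 was at 319 CPM (303 to 336) in humWT and at 468 (441 to 495) in humdG, a log2 ratio of 0.55 (0.44 to 0.66). The red blood cell-like level went from 196 to 384 CPM over the same libraries, a log2 ratio of 0.97 (0.78 to 1.16). The RPE-like level exceeded it by 123 CPM in humWT and by 83.2 in humdG, and after subtraction the log2 ratio was -0.56. That excess rests on the scale of the red blood cell-like totals. With globin left out of them their Ccnd1 level was 304 CPM in humWT and 670 in humdG. The humWT RPE-like level was then just above the mark and the humdG one below it. Hba-a2 and Hbb-bt stayed in those totals, so the humWT place above the mark is not settled. With equal weight for each cell the log2 ratio was 1.01, and with cells thinned to 1000 UMIs it was 0.93. The mesenchyme-like clusters showed a like difference, with 172 and 239.6 CPM in the Pi16 cluster (log2 ratio 0.48) and 153 and 223 in the Mgp cluster (log2 ratio 0.55). Both were under the red blood cell-like level in CPM in both libraries. By cell number the picture differed. The Pi16 cluster held 3149 Ccnd1 UMIs in 1190 humWT cells and 2095 in 510 humdG cells. Red blood cell-like cells held 442 in 501 humWT cells and 432 in 252 humdG cells. Ccnd1 was higher in the humdG library in each of these classes, red blood cell-like cells included.

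Fgf15, a growth factor gene of retinal progenitors, was read beside it as another progenitor gene. Its level in RPE-like cells was 13.6 CPM in humWT and 51.9 in humdG, and in red blood cell-like cells 8.88 and 36.5. The number of Ccnd1 UMIs per Fgf15 UMI in humWT was 23.5 in RPE-like cells, 23.0 in the Pi16 cluster, 26.5 in the Mgp cluster and 22.1 in red blood cell-like cells. In humdG these numbers were 9.01, 9.61, 10.5 and 10.5. Within each library they lay close together in 4 classes of very different origin, and apart from the progenitors' own 6.68 in humWT and 4.15 in humdG. The list of 9 progenitor markers, all of them detected in each of these classes, summed to 623 CPM in humWT RPE-like cells and to 1042 in humdG ones, and to 311 and 623 in red blood cell-like cells.

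**Figure D2:**
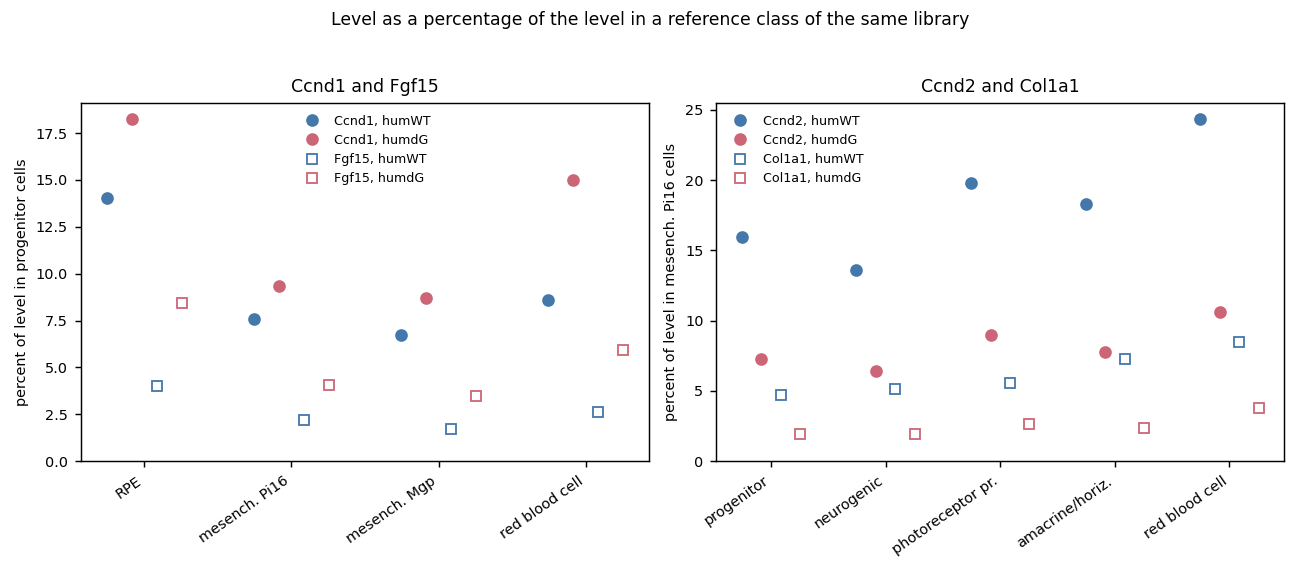
Left, the level of Ccnd1 (filled circles) and Fgf15 (open squares) in RPE-like, mesenchyme-like and red blood cell-like cells as a percentage of the level in progenitors of the same library. Right, the level of Ccnd2 (filled circles) and Col1a1 (open squares) in the retinal classes and red blood cell-like cells as a percentage of the level in the Pi16 mesenchyme cluster. Blue is humWT and red humdG. On the left humdG is above humWT for both genes in every class, on the right it is below.

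Ccnd2 had the opposite distribution to Ccnd1. It was highest in the Mgp cluster of the mesenchyme among the 7 classes, at 293 CPM (285 to 302) in humWT and 297 (286 to 307) in humdG, and next in the Pi16 cluster at 252 in both. In neither cluster did the libraries differ beyond counting error, with log2 ratios of 0.02 (-0.05 to 0.08) and 0.00 (-0.07 to 0.08). RPE-like cells had 231 CPM (217 to 245) in humWT and 171 (156 to 188) in humdG, a log2 ratio of -0.43 (-0.60 to -0.26). Both were well above the red blood cell-like levels of 61.3 and 26.7. The ratio stayed below 0 under the alternatives tried, from -0.87 with thinned cells to -0.12 after subtraction of the red blood cell-like level with globin left out.

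In the retina Ccnd2 was low in both libraries and lower in humdG. Progenitors had 40.1 CPM in humWT and 18.3 in humdG, neurogenic-like cells 34.2 and 16.1, photoreceptor precursor-like cells 49.8 and 22.7, and amacrine and horizontal-like cells 46.0 and 19.5. The log2 ratios were -1.13, -1.08, -1.13 and -1.24 in that order. All 8 levels were below the red blood cell-like level of their library, which itself had a log2 ratio of -1.20 (-1.82 to -0.62), so they are background-level in both. The mesenchyme gene Col1a1 moved with Ccnd2. It went from 567 to 192 CPM in progenitors (log2 ratio -1.56), while it was 12130.1 and 9991 in the Pi16 cluster itself. All 10 mesenchyme markers were detected in progenitors, and they summed to 1583 CPM in humWT and 504 in humdG.

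Ccnd3 was highest in the Pi16 cluster of the mesenchyme, at 204 CPM (197 to 210.2) in humWT and 218 (208 to 228) in humdG. The Mgp cluster followed with 151 and 126, a log2 ratio of -0.26 (-0.35 to -0.16). RPE-like cells had 101 CPM in both libraries, with a log2 ratio of 0.00 (-0.22 to 0.23). Progenitors had 48.3 and 44.8, photoreceptor precursor-like cells 36.6 and 36.4. Neurogenic-like cells went from 31.2 to 21.3 and amacrine and horizontal-like cells from 33.4 to 20.8 CPM. The humWT values of these 2 classes were below the red blood cell-like level of 36.0 CPM, which was 17.8 in humdG. With single cells gated on markers the log2 ratio in amacrine and horizontal-like cells was -0.10 in place of -0.68.

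The mix of the 3 cyclins differed between the classes. The shares below are of counted UMIs. Whether intron reads were counted is not known, and capture may differ between genes. The shares thus compare classes and libraries, and are not a measure of the relative transcript amounts of the 3 genes. Of the summed UMIs of Ccnd1, Ccnd2 and Ccnd3, Ccnd1 made up 96.3% in humWT progenitors and 97.6% in humdG progenitors. Its share was 90.5% and 94.9% in neurogenic-like cells, 88.9% and 91.3% in photoreceptor precursor-like cells and 75.0% and 89.0% in amacrine and horizontal-like cells. RPE-like cells were mixed, with 49.1% (47.2 to 50.9) Ccnd1, 35.5% Ccnd2 and 15.5% Ccnd3 in humWT. In humdG the RPE-like mix was 63.2% (60.9 to 65.4), 23.2% and 13.6%. In the Pi16 cluster Ccnd1 made up 27.4% and 33.8%, Ccnd2 40.1% and 35.5%, and Ccnd3 32.5% and 30.7%. In red blood cell-like cells Ccnd1 was 66.9% of the 3 cyclins in humWT and 89.6% in humdG. Some shares rest on background-level counts. In both libraries these were Ccnd2 in progenitors, neurogenic-like cells and both neuron classes, and Ccnd1 in the Pi16 cluster. Ccnd1 in humdG amacrine and horizontal-like cells and Ccnd3 in humWT neurogenic-like and amacrine and horizontal-like cells were so too. Ccnd1 in humdG RPE-like cells was below the mark with globin left out.

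**Figure D3:**
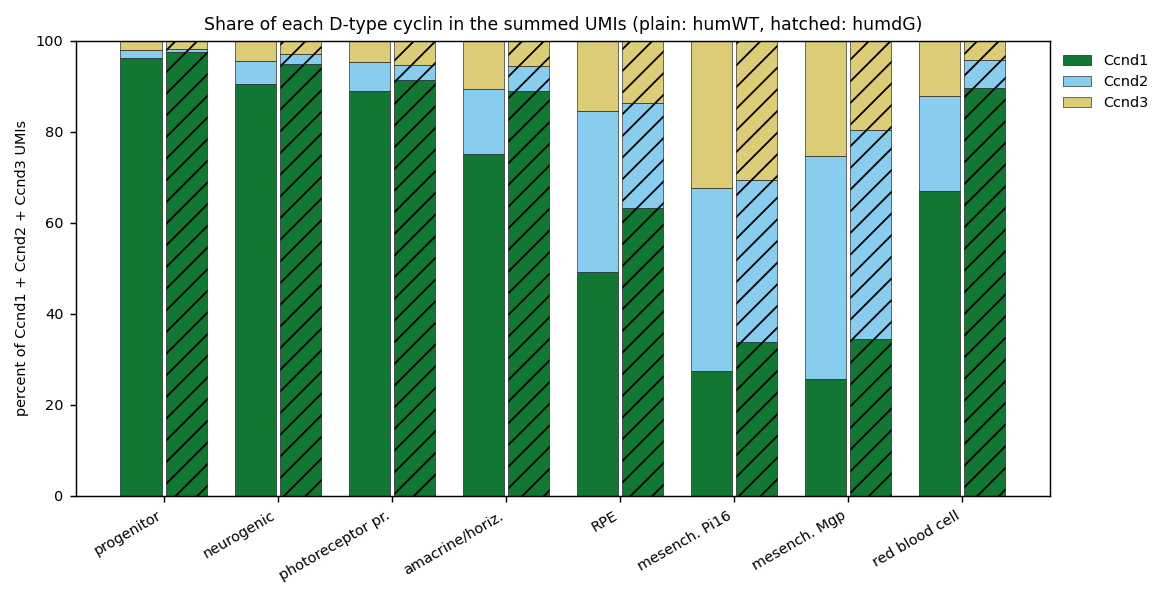
Percentage of the summed Ccnd1, Ccnd2 and Ccnd3 UMIs that each gene contributed, by class, for humWT (plain bars) and humdG (hatched bars). Ccnd1 fills 96.3% and 97.6% of the progenitor bars and 27.4% and 33.8% of the bars of the Pi16 mesenchyme cluster, and the RPE-like bars lie between. Ccnd2 in the retinal classes and Ccnd1 in the mesenchyme-like clusters were background-level in both libraries.

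Cdk4, the kinase that all 3 cyclins can bind, was above the red blood cell-like level in every class compared, also with globin left out. The latter margin was smallest in the Pi16 cluster, at 150.3 against 101 CPM in humWT and 193.5 against 147 in humdG. Hba-a2 and Hbb-bt stayed in the totals behind this mark, so the humdG place of the Pi16 cluster above it is not settled. Cdk4 was highest in neurogenic-like cells, at 434 CPM (413 to 456) in humWT and 534 (517 to 552) in humdG. Progenitors followed at 351 and 423. Amacrine and horizontal-like cells had 251 and 394, photoreceptor precursor-like cells 242 and 288, RPE-like cells 160.1 and 244, the Mgp cluster 222 and 253 and the Pi16 cluster 150.3 and 193. Cdk4 was higher in the humdG library in all 7 classes, and the lower bound of each ratio was above 1. The log2 ratios ran from 0.19 (0.12 to 0.26) in the Mgp cluster to 0.65 (0.54 to 0.76) in amacrine and horizontal-like cells, with 0.61 (0.45 to 0.77) in RPE-like cells. The ratio of 0.25 in photoreceptor precursor-like cells turned to -0.25 when the libraries were clustered without integration, and that of amacrine and horizontal-like cells was 0.07 with single cells gated on markers. With the red blood cell-like level subtracted, globin left out, the log2 ratios were 0.71 in RPE-like and 0.72 in amacrine and horizontal-like cells, but -0.01 in photoreceptor precursor-like cells, -0.09 in the Pi16 cluster and -0.20 in the Mgp cluster. Against this, Cdk4 stood at 65.3 and 84.5 CPM in the red blood cell-like class, a log2 ratio of 0.37 (-0.01 to 0.75).

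Among the 7 classes Cdk6 was highest in progenitors, with 139 CPM (133 to 145) in humWT and 129 (125 to 134) in humdG. Outside these 7, it reached 53.2 and 152 CPM in cartilage-like cells and 117 and 86.6 in surface epithelium-like cells. It was 69.9 and 57.2 in neurogenic-like cells, 43.4 and 34.2 in photoreceptor precursor-like cells and 20.7 and 21.0 in amacrine and horizontal-like cells. The order from progenitor to amacrine and horizontal-like cells was the same in both libraries. RPE-like cells had 24.9 and 23.3 CPM, the Pi16 cluster 16.6 and 13.4, and the Mgp cluster 40.2 and 33.9. None of the 7 log2 ratios, which ran from -0.35 to 0.02, passed 1.5-fold, and the red blood cell-like level was 11.5 and 14.2. The Pi16 cluster of humdG was thus background-level.

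**Figure D4:**
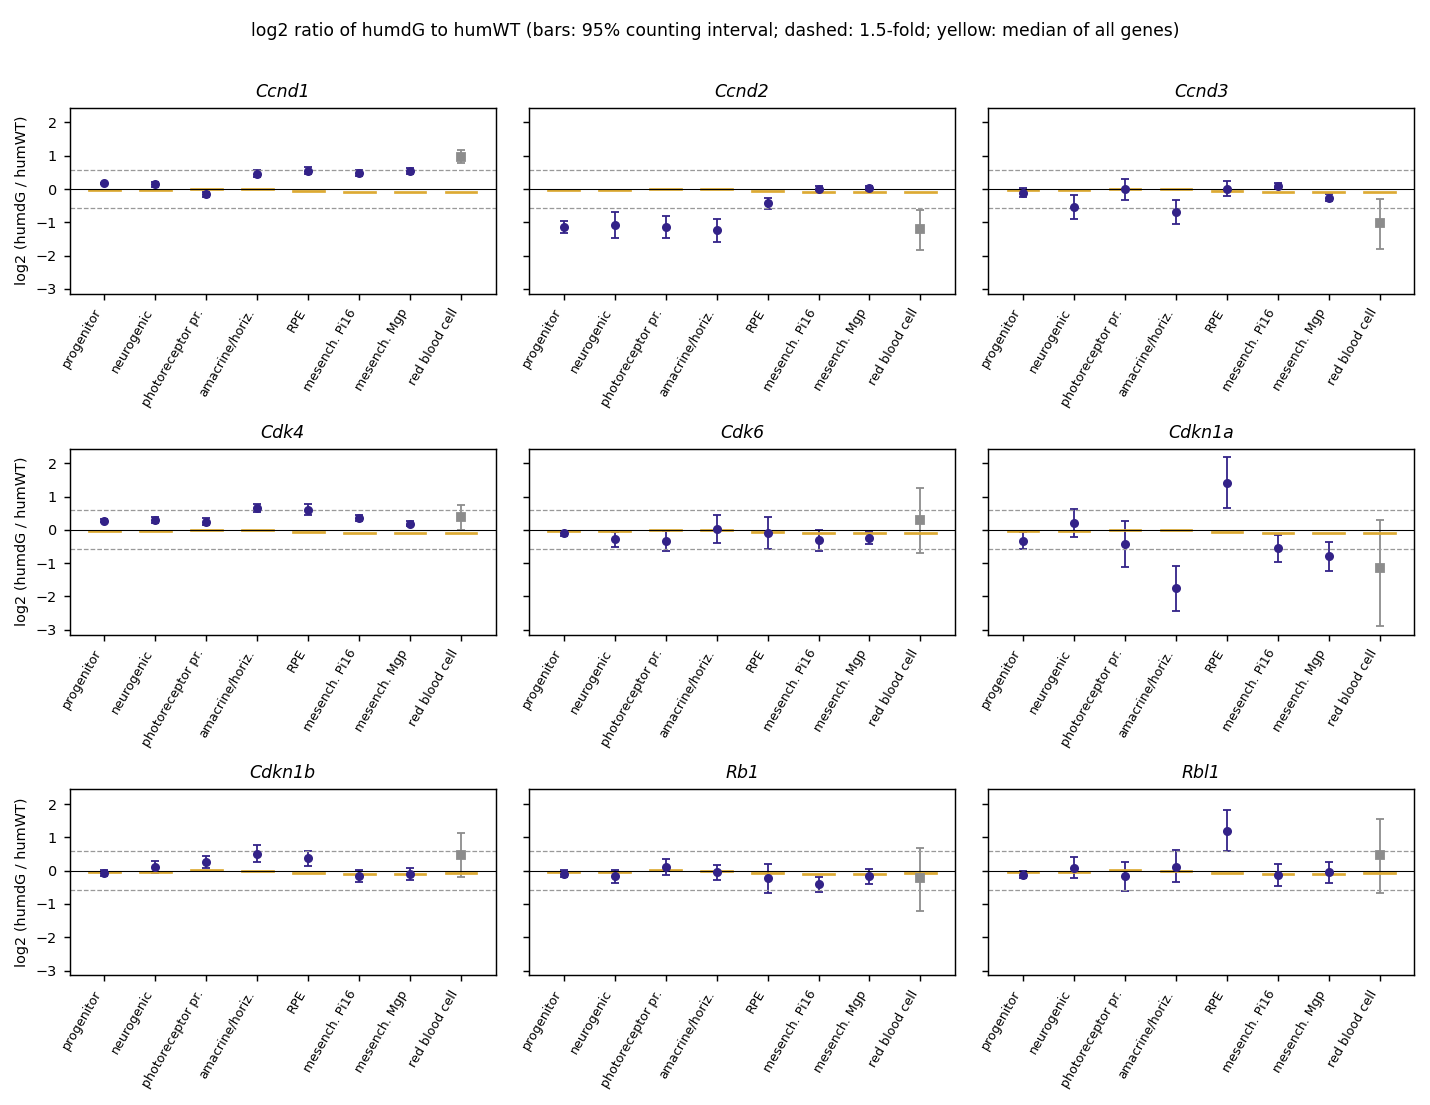
The log2 ratio of humdG to humWT for each gene in the 7 classes (dots) and in red blood cell-like cells (grey squares), with 95% counting intervals. Dashed lines mark 1.5-fold and yellow dashes the median of all genes with at least 20 UMIs in the class. Ccnd2 lies at -1.08 to -1.24 in the 4 retinal classes and at -1.20 in red blood cell-like cells, Cdk4 is above 0 in every class (though not in photoreceptor precursor-like cells clustered without integration, nor in these and the mesenchyme-like clusters after subtraction of the red blood cell-like level with globin left out), and Cdkn1a lies at 1.41 in RPE-like and -1.74 in amacrine and horizontal-like cells.

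The inhibitor Cdkn1a was rare in all 7 classes, between 4.50 and 23.2 CPM. Its highest level of any named class was in surface epithelium-like cells, with 150.4 CPM in humWT and 155 in humdG, from 102 and 110 cells. Of the classes compared, neurogenic-like cells had the highest value, 20.2 (15.9 to 25.3) and 23.2 (19.7 to 27.1), but their interval overlapped that of amacrine and horizontal-like cells in humWT and that of RPE-like cells in humdG. Progenitors had 14.8 and 11.8, the Pi16 cluster 11.6 and 7.89, the Mgp cluster 10.7 and 6.16, and photoreceptor precursor-like cells 9.15 and 6.83. Each was lower in humdG by these sums. In the humWT library the photoreceptor precursor-like value was background-level. In the Mgp cluster the log2 ratio of -0.80 turned to 0.34 when cells were thinned to 1000 UMIs and to 0.85 when the red blood cell-like level was subtracted. The red blood cell-like level was 9.77 in humWT from 22 UMIs and 4.45 in humdG from 5 UMIs.

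A few cells set the Cdkn1a values of the other 2 classes. RPE-like cells had 26 UMIs in humWT and 39 in humdG, that is 5.89 and 15.7 CPM and a log2 ratio of 1.41 (0.66 to 2.19), and 1 humdG cell held 20 of the 39. The humWT value was background-level, below the red blood cell-like 9.77 CPM, so the ratio has a background-level denominator. Without the cell with the most Cdkn1a UMIs in each library the log2 ratio was 0.54, under 1.5-fold. Amacrine and horizontal-like cells had 56 UMIs in humWT and 30 in humdG, 15.1 and 4.50 CPM, a log2 ratio of -1.74 (-2.44 to -1.08). There 10 humWT cells held 64.3% of the UMIs and 1 cell held 10. The humdG value was just above the red blood cell-like 4.45 CPM. With globin left out, both values were below the mark, 15.07 against 15.12 CPM in humWT and 4.50 against 7.75 in humdG. Without the top cell of each library the log2 ratio was -1.57, and with single cells gated on marker genes in place of clusters it was 0.18.

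Cdkn1b was broader. Progenitors had 108 CPM (103 to 113) in humWT and 103 (99.5 to 107) in humdG, neurogenic-like cells 107 and 115, and photoreceptor precursor-like cells 92.3 and 111. The intervals of progenitors and neurogenic-like cells overlapped in humWT, and those of neurogenic-like and photoreceptor precursor-like cells in humdG, so the top place is not settled by these counts. RPE-like cells had 79.4 (71.3 to 88.1) and 102 (90.0 to 116), a log2 ratio of 0.37 (0.13 to 0.60). Amacrine and horizontal-like cells had 48.5 and 68.5, a log2 ratio of 0.50 (0.25 to 0.76) that was 0.14 with single cells gated on markers. The mesenchyme-like clusters were lower, at 42.8 to 48.1 CPM in both libraries. No ratio of Cdkn1b passed 1.5-fold, and the red blood cell-like level was 21.8 and 30.3.

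Rb1, the retinoblastoma protein gene, was highest among the 7 classes in neurogenic-like cells, at 98.2 CPM (88.4 to 109) in humWT and 87.4 (80.5 to 94.7) in humdG. Among all named classes blood vessel-like cells had more, 117 and 110.2. Progenitors had 70.8 and 66.6, amacrine and horizontal-like cells 72.4 and 69.7, and these neighbours did not differ beyond counting error in either library. Photoreceptor precursor-like cells had 53.2 and 57.3 CPM. RPE-like cells had 31.5 and 27.0 and the mesenchyme-like clusters 22.9 to 30.5, against 15.5 and 13.3 in red blood cell-like cells. The log2 ratios of Rb1 ran from -0.41 in the Pi16 cluster to 0.11 in photoreceptor precursor-like cells.

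Rbl1, the pocket protein that rises in cycling cells and carries the motif printed above, was highest in progenitors, at 62.4 CPM (58.5 to 66.5) in humWT and 57.5 (54.7 to 60.5) in humdG. Neurogenic-like cells came next with 33.4 and 35.3, and photoreceptor precursor-like cells had 20.4 and 18.1 and amacrine and horizontal-like cells 15.3 and 16.6. The mesenchyme-like clusters had 13.3 to 14.5 CPM, and the red blood cell-like level was 8.44 and 11.6. RPE-like cells had 41 UMIs in humWT and 53 in humdG, 9.30 and 21.3 CPM, a log2 ratio of 1.20 (0.58 to 1.82), and 1 humdG cell held 12 of the 53. With globin left out, the red blood cell-like level was 13.1 CPM in humWT and 20.2 in humdG. The humWT RPE-like value was then below the mark and the humdG value just above it. Hba-a2 and Hbb-bt stayed in the totals behind this mark, so the humdG place above it is not settled. In humdG RPE-like cells stood above photoreceptor precursor-like cells, with overlapping intervals, and in humWT they were the lowest of the 7 classes. Without the cell with the most Rbl1 UMIs in each library the log2 ratio was 0.92, with cells thinned to 1000 UMIs it was 0.09, and with single cells gated on markers 0.50.

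Counted over the 9 genes, the share past 1.5-fold between the libraries was near that of all genes in most classes. In progenitors and in neurogenic-like cells 1 of 9 was past 1.5-fold, Ccnd2 in each, against 15.4% of all 16065 genes and 15.1% of all 13192 genes with at least 20 UMIs. In photoreceptor precursor-like cells it was again Ccnd2 alone, against 17.1% of 13348 genes. Amacrine and horizontal-like cells had 4 of 9 (Cdk4 higher, Ccnd2, Ccnd3 and Cdkn1a lower) against 20.3% of 13820 genes. RPE-like cells had 3 of 9 (Cdk4, Cdkn1a and Rbl1) against 22.3% of 12670 genes, and all 3 were higher in humdG, where 7.40% of genes were. The RPE-like class joined 2 clusters, the smaller with 74 of its humWT and 15 of its humdG cells, and in the larger cluster alone the log2 ratio of Cdk4 was 0.51, under 1.5-fold, while Cdkn1a (1.53) and Rbl1 (1.41) stayed past it. The Pi16 cluster had 0 of 9 against 12.8% of 15195 genes and the Mgp cluster 1 of 9, Cdkn1a, against 12.0% of 15238 genes. Altogether 11 of 63 ratios passed, and 6 of these had a background-level value. They were the 4 Ccnd2 ratios of the retina, in both libraries, and, in humWT, Ccnd3 in amacrine and horizontal-like cells and Cdkn1a in RPE-like cells. With globin left out of the red blood cell-like totals it was 9 of 11. The median log2 ratio of the 9 genes was 0.37 in RPE-like cells, where that of all genes was -0.06, and between -0.16 and 0.08 in the other 6 classes.

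The other genes of the G1 and S phase machinery were mostly within 1.5-fold. Of 23 such genes (among them E-type cyclins, other inhibitors, E2F and Myc family genes) all 23 had at least 20 UMIs in progenitors, where 0 were past 1.5-fold higher and 5 were past it lower in humdG, against 4.84% of all genes higher and 10.6% lower in that class, with a median log2 ratio of -0.10. Among these were the cyclin E gene Ccne1 (15.3 and 9.29 CPM), the inhibitors Cdkn1c (132 and 85.1) and Cdkn2c (42.6 and 28.2), and Myc (4.56 and 1.21). Cdkn1c was far higher in the Pi16 cluster, at 2838 CPM in humWT and 3450 in humdG. Neither the genes of this list nor the p53-induced genes below were set beside the red blood cell-like level. The part of free RNA in their ratios was not tested. In the Pi16 cluster Cdkn2c went from 17.4 to 9.61, the E2F family repressor E2f7 from 10.5 to 4.80 and Mycn from 3.55 to 6.29. In the Mgp cluster Cdkn2c went from 15.7 to 9.43 and E2f8 from 9.96 to 6.54. In photoreceptor precursor-like cells Cdkn2c went from 14.9 to 8.44. Cdkn2c was past 1.5-fold lower in 4 of 7 classes, only just so in progenitors (log2 ratio -0.60, -0.75 to -0.44). Of 21 measured genes of the list, 3 were past it lower in photoreceptor precursor-like cells and 2 in the Mgp cluster, with 0 higher in either. In the Pi16 cluster 2 of 21 were lower and 1 higher. Past it in either direction were 17.1%, 12.0% and 12.8% of all genes in these 3 classes, in that order. In RPE-like cells 2 of 21 measured genes of the list were higher and 1 lower past 1.5-fold, against 7.40% and 14.9% of all genes, with a median of -0.03.

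Of 15 genes that p53 induces, as it does Cdkn1a, 14 had at least 20 UMIs in progenitors and 4 were past 1.5-fold lower in humdG, against 10.6% of all genes, among them Ccng1 (14.1 and 9.06 CPM) and Plk2 (6.88 and 3.25). In RPE-like cells 1 of 13 was higher, Btg2 with 14.3 and 27.0, and 2 were lower, against 7.40% and 14.9% of all genes. In the Mgp cluster Plk2 was higher, at 30.1 and 48.5, and Tnfrsf10b lower, at 4.88 and 3.18, while in the Pi16 cluster Trp53inp1 was lower, at 28.5 and 16.6. The median log2 ratio of the list in RPE-like cells was 0.11.

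The 14 genes of cycling cells, among them replication and mitosis genes, had median log2 ratios of -0.08 in progenitors and 0.05 in neurogenic-like cells, with 0 of 14 past 1.5-fold in either class, against 15.4% and 15.1% of all genes. In RPE-like cells 4 of 14 were past 1.5-fold higher and 0 lower, against 7.40% and 14.9% of all genes, with a median of 0.46. They included the replication helicase genes Mcm5 (12.5 and 19.3 CPM) and Mcm7 (27.9 and 43.5) and the cyclin gene Ccna2 (18.6 and 29.8). In amacrine and horizontal-like cells Ccnb1 (13.2 and 19.9) and Ube2c (34.5 and 52.8) were higher, and in photoreceptor precursor-like cells the same 2 genes were lower, at 51.1 and 31.4 and at 192 and 126. The 14 genes summed to 511 and 683 CPM in RPE-like cells and to 489 and 652 in red blood cell-like cells, and the part of free RNA was not tested.

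Across the 15 named classes and clusters, on log2 CPM with 10 added and averaged over both libraries, each of the 9 genes was set beside 7493 genes that reached 50 CPM in some class. The genes most like Ccnd1 were Espn (r = 0.93), the Wnt receptor gene Fzd5 (r = 0.92) and Dapl1 (r = 0.91). Ccnd2 and Ccnd3 were both closest to Anxa2, an annexin gene (r = 0.92 and 0.91). Cdk4 was closest to Mbd3, Erh and Lsm8 (r = 0.96 to 0.97). Cdk6 was closest to Cdca7 (r = 0.80), Cdkn1b to Mrps33 and Ldha (r = 0.90 and 0.89) and Rb1 to Ptpn12 (r = 0.86). Cdkn1a was closest to Cstdc5 and Asprv1, epidermal genes (r = 0.83). Rbl1 was closest to Mms22l (r = 0.95), Mcm5 (r = 0.92) and Dnmt1 (r = 0.91), which act at the replication fork. These correlations describe 15 points that share 2 libraries, their depth and their free RNA.

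Over the 7 classes compared, 8 of the 9 genes had the same highest class in both libraries, and Cdkn1b was the exception. The top levels overlapped for Cdkn1b and, as given above, for Cdkn1a. Over all 15 named classes and clusters it was 6 of 9. There Ccnd2 was highest in surface epithelium-like cells in humWT and in neural crest and glia-like cells in humdG, and Cdk6 in progenitors in humWT and in cartilage-like cells in humdG.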

How the data were processed

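Single cells of mouse optic cups at E17.5 were measured in 1 Myrf humWT/humWT and 1 Myrf humdG/humdG library. The deposited matrices hold UMI counts per gene and barcode, which the authors made with Cell Ranger (7.1.0) against mm10 and analysed with Seurat (4.1.1), per the processing notes. Whether intron reads were counted is not given in the sources used here. The study states fewer cells than the files hold. Per-sample groups came from the genotype labels.

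From the deposited counts, barcodes needed over 500 detected genes and a mitochondrial share below 15% to be kept (136 and 178 barcodes were lost to the first filter, 268 and 258 to the second, humWT and humdG). Scrublet (scanpy 1.11.5) called 1 and 0 doublets by its own threshold, which had not worked, so the 5% of barcodes with the highest scores were removed (850 and 956). Seurat 5.3.0 (R 4.3.3) integrated the libraries by canonical correlation over 2000 variable genes and 20 dimensions and clustered at resolution 0.5, without the 9 genes and 23 other G1 and S phase genes. A cluster was named when at least 3 markers of a list were raised 2-fold and detected in 10% of its cells, with 1 among its 20 leading genes. The list with the largest share raised gave the name.

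UMIs were summed per class and library and divided by the class total (CPM). With 1 library per genotype no test was made and no p was computed. A gene with at least 20 UMIs in a class was called past the fold at 1.5-fold. The 9 genes, the alternatives tried and the lists (23 G1 and S phase, 15 p53-induced, 14 cycling genes) were chosen with earlier results of these data known. The genes named were the 9, those of the lists past 1.5-fold with at least 100 UMIs in the class, and the 3 with the highest Pearson r to each of the 9. Intervals were tested on simulated counts. Alternatives changed the cell filters, the clustering, the scaling, the weight and depth of cells and the subtraction of free RNA. Removal of the top cell of each gene, subtraction of the red blood cell-like level with globin left out of its total, and the use of the larger RPE-like cluster alone were added after the data were seen. Globin left out means that Hba-a1 and Hbb-bs were taken from the total, while Hba-a2 and Hbb-bt stayed in it. Depth was 129135207 and 114319529 UMIs. Promoter windows came from RefSeq (GRCm38.p6) and gene positions from GENCODE (GRCm38).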

Additional observations from a re-analysis of the deposited data

Results flagged for a closer look

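The log2 ratio of Cdkn1a was 1.41 in RPE-like cells but -1.74 in the amacrine and horizontal-like class, past 1.5-fold in opposite directions under the same comparison of humdG with humWT. Cdkn1a was the 1 gene of the 9 for which this was so. The difference between the classes was not tested, since each genotype had 1 library. The values rest on 26 and 39 UMIs in the RPE-like class and on 56 and 30 UMIs in the amacrine and horizontal-like class, in humWT and humdG, and 1 humdG cell held 20 of the 39. The humWT RPE-like level was below that of red blood cell-like cells, 5.89 against 9.77 CPM. The humdG amacrine and horizontal-like level was just above it, 4.50 against 4.45 CPM. With globin left out of the red blood cell-like totals, that class was below the mark in both libraries. Without the top cell of each library the log2 ratios were 0.54 and -1.57. With single cells gated on markers they were 1.90 and 0.18, so the directions were then no longer opposite.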

How the results depend on the processing

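The log2 ratio of Ccnd1 in RPE-like cells, 0.55 as reported, was 1.01 with equal weight for each cell, 0.93 with cells thinned to 1000 UMIs and -0.56 with the red blood cell-like level subtracted. The number of ratios past 1.5-fold, 11 of 63, became 17 with equal weight per cell, 22 with thinned cells, 17 of the 51 that remained after subtraction, and 7 of the 45 that the gate on single cells gave. With globin left out of the subtracted level the count was 10 of the 33 that remained, and Ccnd1 in RPE-like cells gave no ratio. Under the other alternatives the Ccnd1 ratio was between 0.52 and 0.62 and the count between 11 and 16, with 7 to 9 of the 9 genes highest in the same class of both libraries. The share of all genes past 1.5-fold was not computed under any alternative. Whether a change in these counts is particular to the 9 genes therefore cannot be told. Cdkn1a, past 1.5-fold as reported, changed sign in amacrine and horizontal-like cells under the gate (0.18) and in the Mgp cluster with thinned cells (0.34) and after subtraction (0.85). Of 746 gene-by-class ratios under an alternative, 601 stayed inside the counting interval of the reported ratio, 142 left it, and the other 3 are those of Cdkn1a. The cause was not tested, except that fewer ratios could be formed in some settings. Subtraction left no value where the remainder was not above 0, the gate did not split the mesenchyme, and at resolution 1.0 no Pi16 cluster formed, which left 54 ratios. In photoreceptor precursor-like cells 7 of 9 genes left that interval when the libraries were clustered without integration, where Ccnd2 was at -0.30 in place of -1.13. No paired analysis was possible because each genotype had 1 library and the labels carry no replicate numbers.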

Other observations

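Over all cells kept, Ccnd1 was at 586 CPM in humWT and at 1099 in humdG, a log2 ratio of 0.91, where the ratio within progenitors was 0.17. Ccnd2 was at 176 and 101 CPM over all cells (log2 ratio -0.80), where its ratios in the mesenchyme-like clusters were 0.00 and 0.02. Progenitor-like cells made up 11.1% of the humWT cells and 16.6% of the humdG cells, the Pi16 mesenchyme cluster 7.36% and 2.81%, and the unnamed clusters 33.3% and 52.2%.

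The largest unnamed cluster, with median depths of 2312 and 1660 UMIs and Sncg among its leading genes, held values between those of progenitors and mesenchyme for each D-type cyclin. Ccnd1 was at 627 CPM in humWT and 1118 in humdG there, Ccnd2 at 138 and 79.7, Ccnd3 at 70.3 and 50.8. Cdk4 was at 189 and 292 CPM and Cdkn1b at 52.6 and 77.9. These cells entered no comparison above, since no marker list gave them a name.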
